A study of Mus musculus with 18 samples.

Results

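Dap and 9 genes of muscle atrophy and autophagy were followed across myotubes of the mouse line C2C12. The genes, each found by its symbol, are Dap, Trim63, Trim55, Fbxo32, Fbxo31, Gabarapl1, Map1lc3b, Sqstm1, Bnip3 and Foxo3, 10 of the 22180 genes tested. Each is read by 1 probe set that names a single gene, so no second such probe set could disagree. Probe sets that name several genes were not used. Dap was picked because it has the largest fall in the Nup210 shRNA arrays. Its values in the Nup210 shRNA and control arrays are therefore a description here and carry no test. The other 9 were picked by what their proteins do, although earlier results of these data were already known.

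C2C12 is an established line of mouse myoblasts that fuse into myotubes in low serum. Cells were kept in 20% fetal bovine serum, switched to 2% horse serum to differentiate, infected 36 h later with a lentivirus that carries a short hairpin RNA (shRNA), and collected 48 h after infection. There were 3 groups of 6 one-colour arrays: a control scramble shRNA, an shRNA against Nup210 (a transmembrane nucleoporin) and an shRNA against Mef2c (a transcription factor of the muscle programme). All groups, the control included, share the lentiviral infection, and no uninfected cells were analysed here. The design sets each shRNA against the scramble control, and the shRNA groups were also compared directly. The labels do not say how many hairpins were used or whether the 6 samples of a group were grown separately; p-values here reflect only how much these samples vary, and that variation may be technical. Each comparison has 6 arrays a side, which limits the precision.

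Arrays of a group correlated across genes at 0.991 to 0.995. Mef2c fell to 17.9% of control in its own shRNA arrays (limma adjusted p = 2.8e-11, Benjamini-Hochberg over all genes). That is a log2 difference of -2.48, and a second, dimmer probe set of Mef2c differed by -1.86. Nup210, whose probe set is dim (mean 5.75 in controls), stood at 93.1% of control in the Nup210 shRNA arrays and did not pass (limma adjusted p = 0.402). It was called lower than with Mef2c shRNA, at 85% of that level (limma adjusted p = 0.0178), although these groups overlapped. Its Mef2c shRNA level was 109% of control and did not pass (limma adjusted p = 0.232). No fall of Nup210 from control was thus called, so the Nup210 shRNA arrays are named by their label. The Nup210 shRNA arrays 2, 4 and 5 had the lowest array weights of the series (0.724, 0.621 and 0.744, with 0.797 to 1.44 elsewhere). An array weight is limma's estimate of how closely an array follows its group. All 16 myotube markers lay above background in each group. Background was taken as the 95th percentile, 5.47, of 1394 olfactory and vomeronasal receptor genes. Of 8 macrophage markers 6, and of 8 endothelial markers 6, lay below that level, Ptprc, Adgre1, Pecam1 and Cdh5 among them. All 10 genes followed here lay above it in every array group.

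Muscle fibres lose mass through the proteasome and through autophagy. On the proteasome side, ubiquitin ligases of muscle mark contractile and regulatory proteins for the proteasome: Trim63 (MuRF1) and Trim55 (MuRF2) are RING-finger ligases of the sarcomere, and Fbxo32 (atrogin-1) is the F-box subunit of a cullin ligase. Autophagy wraps cytoplasm in a membrane studded with lipid-linked ATG8 proteins, such as those made by Map1lc3b (LC3B) and Gabarapl1, and receptors such as Sqstm1 (p62) and the mitochondrial protein Bnip3 bring in cargo. The FoxO factors, Foxo3 among them, switch on genes of both routes when insulin and Akt signalling is low. Dap (death-associated protein) is a small proline-rich phosphoprotein, a substrate of mTOR that holds autophagy back. Fbxo31 is another F-box protein, known for directing degradation of cyclin D1.

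Promoter sequence was available for 8 of the 10 genes in the RefSeq table of GRCm38.p6 (no entry for Trim55 or Fbxo32). The 250 bases before the annotated start are shown for the genes on which the results turn: Dap, which has by far the largest difference; Trim63, which moved in opposite directions in the shRNA groups; Gabarapl1, the ATG8 gene that rose with Nup210 shRNA; and Map1lc3b and Fbxo31, which rose with Mef2c shRNA. They run 5′ to 3′ on the strand of the gene. Capitals mark the FoxO core GTAAACA on either strand and the E-box CANNTG, the element read by the MyoD family, and overlapping matches would be marked together. The Dap and Fbxo31 windows hold neither.
Dap (chr15:31224135-31224384, plus strand): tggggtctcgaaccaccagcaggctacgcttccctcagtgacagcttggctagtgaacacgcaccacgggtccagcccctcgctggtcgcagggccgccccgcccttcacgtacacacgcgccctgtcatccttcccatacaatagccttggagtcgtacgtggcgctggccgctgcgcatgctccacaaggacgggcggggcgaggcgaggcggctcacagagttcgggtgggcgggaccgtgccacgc
Trim63 (chr4:134314870-134315119, plus strand): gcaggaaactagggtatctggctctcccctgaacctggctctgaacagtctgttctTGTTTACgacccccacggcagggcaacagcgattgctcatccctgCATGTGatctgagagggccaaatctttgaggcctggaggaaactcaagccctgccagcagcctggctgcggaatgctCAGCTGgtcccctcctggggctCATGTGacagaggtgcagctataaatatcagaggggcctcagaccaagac
Gabarapl1 (chr6:129532942-129533191, plus strand): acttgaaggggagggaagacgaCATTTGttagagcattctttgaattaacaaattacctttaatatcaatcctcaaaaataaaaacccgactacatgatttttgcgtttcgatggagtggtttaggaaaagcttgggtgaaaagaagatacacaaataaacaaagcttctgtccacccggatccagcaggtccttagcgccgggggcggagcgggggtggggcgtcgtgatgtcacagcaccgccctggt
Map1lc3b (chr8:121590188-121590437, plus strand): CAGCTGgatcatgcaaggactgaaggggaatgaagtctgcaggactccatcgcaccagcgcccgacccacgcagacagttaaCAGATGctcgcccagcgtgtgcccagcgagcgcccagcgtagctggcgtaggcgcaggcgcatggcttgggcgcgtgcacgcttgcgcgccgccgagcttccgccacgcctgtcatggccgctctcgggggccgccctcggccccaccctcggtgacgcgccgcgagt
Fbxo31 (chr8:121578807-121579056, minus strand): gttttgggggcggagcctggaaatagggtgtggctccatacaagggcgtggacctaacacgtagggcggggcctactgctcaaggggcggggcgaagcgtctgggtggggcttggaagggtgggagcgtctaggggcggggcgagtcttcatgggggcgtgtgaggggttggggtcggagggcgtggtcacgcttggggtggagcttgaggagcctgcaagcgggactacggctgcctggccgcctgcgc

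Only the Trim63 window of the 8 held the FoxO core, as TGTTTAC with its first base 194 bases before the start; of all 32851 windows of this length 3.17% held it. Trim63 also had 3 E-boxes, which 66.2% of all windows and 4 of the 8 hold. The MEF2 site, searched in its usual degenerate form on both strands, was in 0 of the 8 and in 2.92% of all windows. The CACGTG form of the E-box was in the Bnip3 window alone among the 8 and in 6.02% of all. These matches describe the letters in the windows and show no binding.

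Dap was far lower in the Nup210 shRNA arrays than in any other array. In controls its log2 values (probe set 17310808) were 10.87, 10.91, 10.81, 10.94, 10.87 and 10.89 in arrays 1 to 6. In the Nup210 shRNA arrays they were 9.55, 9.32, 9.55, 9.10, 9.46 and 9.54, and in the Mef2c shRNA arrays 10.85, 10.84, 10.78, 10.80, 10.95 and 10.88. The highest Nup210 shRNA array thus lay below the lowest control and Mef2c shRNA array, while control and Mef2c shRNA arrays overlapped. The mean difference from control was -1.46 ± 0.066 (SE, n = 6 against 6) for Nup210 shRNA, 36.3% of the control level, and -0.03 ± 0.066 for Mef2c shRNA, 97.8% of it, with a 95% interval from 0.889 to 1.08 times control. Both differences use the same control arrays. No test is attached to either, since the Nup210 shRNA and control values chose the gene. The falls next in size were those of Padi2, a peptidyl arginine deiminase, at -1.11 and of Hephl1, a copper-dependent ferroxidase, also at -1.11; a second probe set of Padi2 differed by -0.09.

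Within the Nup210 shRNA group Dap was lowest in arrays 4, 2 and 5, which are the arrays of lowest weight. Its standard deviation (SD) there was 0.18, against 0.041 in controls and 0.063 in the Mef2c shRNA arrays. The SD over control arrays was smaller than that of all but 5.04% of genes, whereas in the Nup210 shRNA arrays it exceeded that of 68.1% of genes. Without those 3 arrays the difference was -1.34, and it ran from -1.49 to -1.40 when single arrays were left out. Array weight thus moved with the level of Dap within the group, and its part in the difference was not tested beyond these values.

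**Figure D1:**
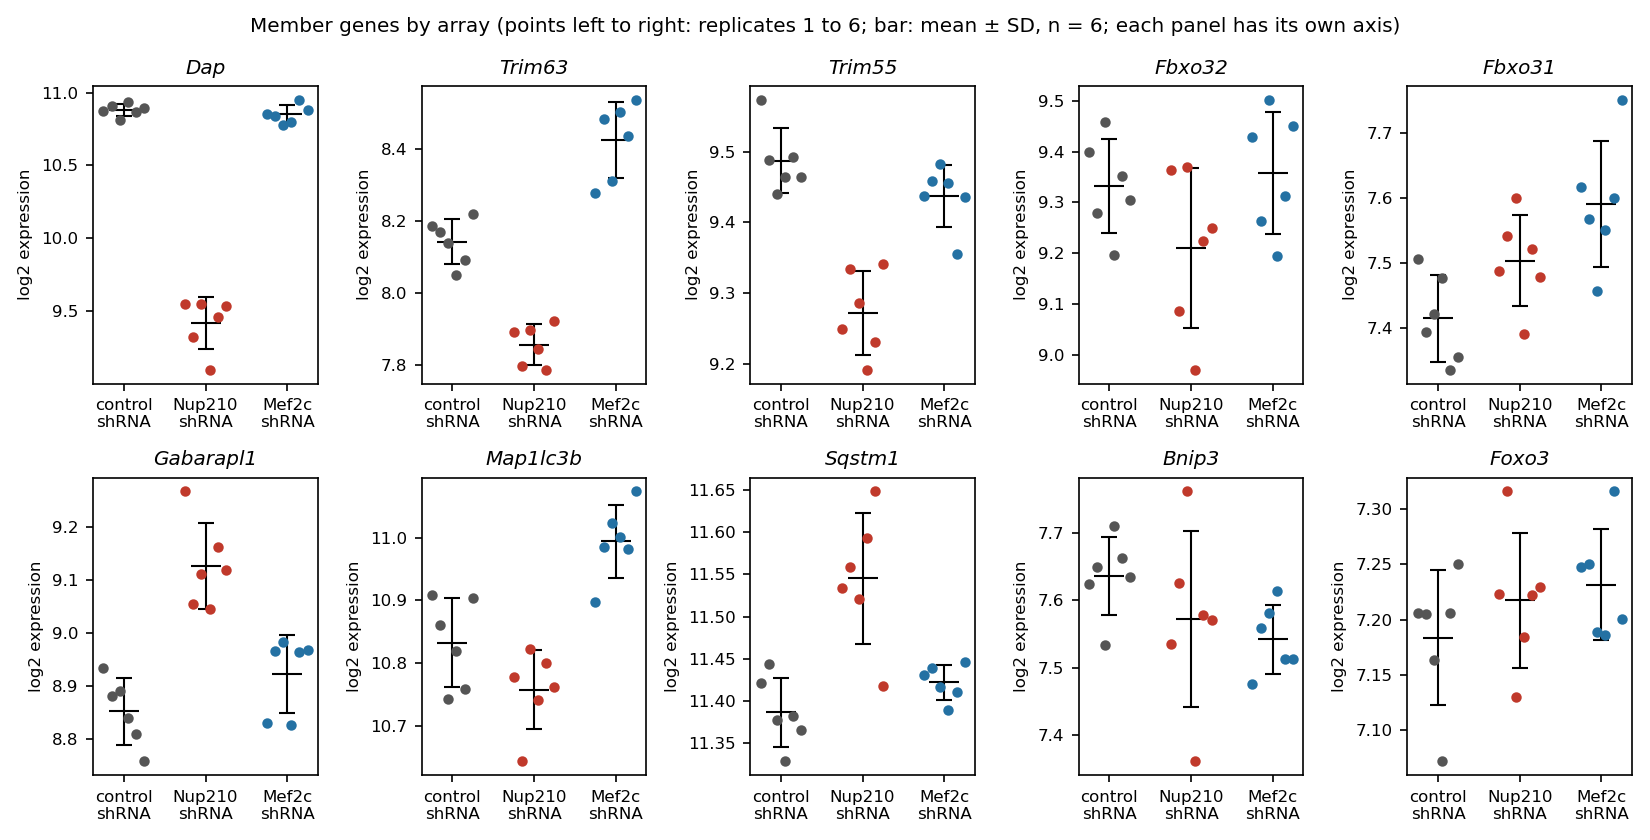
Log2 expression of the 10 genes on each of the 18 arrays, by shRNA group, with the mean and SD of each group (n = 6); every panel has its own vertical axis. Dap is near 9.4 in the Nup210 shRNA arrays and near 10.9 elsewhere, and Trim63 forms 3 groups that do not overlap.

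Among the 9 genes other than Dap, 4 passed limma's test for Nup210 shRNA against control (2 higher and 2 lower), 3 passed for Mef2c shRNA (all higher), and 5 passed between the shRNA groups (2 higher and 3 lower with Nup210 shRNA). Over all genes tested 8.16% passed in the first comparison (3.05% higher, 5.11% lower), 10.8% in the second (4.34% and 6.42%) and 14% in the third (7.1% and 6.93%), or 18.1%, 23.2% and 27.9% when only the 13017 genes above background were fitted. The median difference of the 9 was -0.06, 0.05 and -0.09, against 0.02, 0.02 and -0.00 over all genes. The comparisons share arrays, so their counts are not independent. Groups did not overlap for 3 of the 9, Trim63, Trim55 and Gabarapl1, between Nup210 shRNA and control (1 higher and 2 lower; 5.63% of all genes, 1.92% higher and 3.71% lower). They did not overlap for Trim63 alone between Mef2c shRNA and control (7.74%, 2.97% higher and 4.77% lower), and for 4 between the shRNA groups (1 higher and 3 lower; 8.62%, 4.5% and 4.12%). Without Nup210 shRNA arrays 2, 4 and 5, 2 of the 9 passed against control and 3 against Mef2c shRNA, beside 2.54% and 9.41% of all genes.

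**Figure D2:**
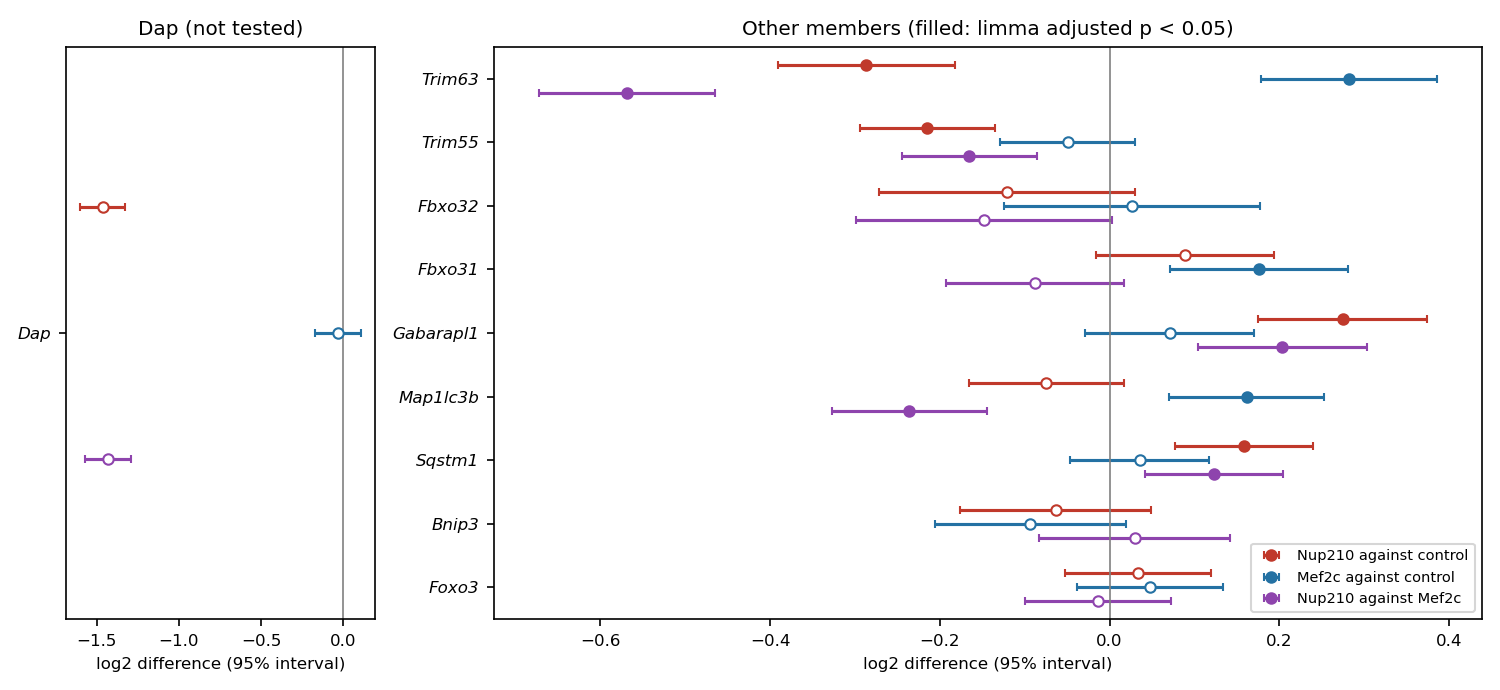
Log2 difference with its 95% interval for Dap (left, not tested) and the other 9 genes (right) in the 3 comparisons; filled points passed limma's test at an adjusted p under 0.05. Trim63 is the gene with filled points on both sides of 0 against control, at -0.29 and 0.28.

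The ligase Trim63 (probe set 17419731) moved in opposite directions in the shRNA groups. Of all 22180 genes, 84 were called in opposite directions in the comparisons with control, Trim63 among them. Its lowest, median and highest log2 values were 8.05, 8.15 and 8.22 in controls, 7.79, 7.87 and 7.92 in the Nup210 shRNA arrays and 8.28, 8.46 and 8.54 in the Mef2c shRNA arrays. No array of any group reached into the range of another. Trim63 fell by 0.29 with Nup210 shRNA, to 82% of control (SE 0.049, limma adjusted p = 0.00111), and rose by 0.28 with Mef2c shRNA, to 122% (SE 0.049, adjusted p = 0.000845). The direct difference between the shRNA groups was -0.57 ± 0.049 (adjusted p = 3.53e-07), which puts the Nup210 shRNA level at 67.4% of the Mef2c shRNA level. The fall with Nup210 shRNA was -0.24 without arrays 2, 4 and 5 (adjusted p = 0.054), where it no longer passed. The rise with Mef2c shRNA and the difference between the shRNA groups passed in each of the 29 alternatives.

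Trim55 (probe set 17396240), the close relative of Trim63, fell in the Nup210 shRNA arrays. Control arrays had a lowest, median and highest value of 9.44, 9.48 and 9.57, Nup210 shRNA arrays 9.19, 9.27 and 9.34, and Mef2c shRNA arrays 9.36, 9.45 and 9.48. Every Nup210 shRNA array lay below every array of the other groups, and the other groups overlapped. The fall of 0.21 left 86.2% of the control level (SE 0.038, limma adjusted p = 0.00131), and the difference from Mef2c shRNA was -0.17 ± 0.038 (adjusted p = 0.00529; 0.0539 without Nup210 shRNA arrays 2, 4 and 5). With Mef2c shRNA the level was 96.6% of control (adjusted p = 0.493; 95% interval from 0.914 to 1.02 times control).

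Fbxo32 (probe set 17317266), the other classical atrophy ligase gene, passed in no comparison. Its control arrays had a lowest, median and highest value of 9.20, 9.33 and 9.46, its Nup210 shRNA arrays 8.97, 9.24 and 9.37, and its Mef2c shRNA arrays 9.20, 9.37 and 9.50, so that all groups overlapped. The Nup210 shRNA mean was 91.9% of control (limma adjusted p = 0.379; 95% interval from 0.828 to 1.02 times), and the Mef2c shRNA mean 102% (adjusted p = 0.879; from 0.918 to 1.13 times). The lowest Nup210 shRNA arrays were 4 and 2 (8.97 and 9.09), as for Dap. Arrays 4 and 2 were also the lowest of the controls (9.20 and 9.28) and of the Mef2c shRNA arrays (9.20 and 9.26). Without Nup210 shRNA arrays 2, 4 and 5 the difference from control was -0.00. That fit kept control arrays 4 and 2, so low arrays left the Nup210 shRNA side only. With the replicate number as a block, Fbxo32 passed between the shRNA groups (adjusted p = 0.0149).

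Fbxo31 (probe set 17513590) rose by 0.18 with Mef2c shRNA, to 113% of control (SE 0.05, limma adjusted p = 0.0278). Control arrays ran from 7.33 over a median of 7.41 to 7.51, and Mef2c shRNA arrays from 7.46 over 7.58 to 7.75, so that the groups overlapped at their edges. With Nup210 shRNA it ran from 7.39 over 7.50 to 7.60, 106% of control, and did not pass (adjusted p = 0.349). When single arrays were left out the rise stayed between 0.14 and 0.20, but its adjusted p lay near the threshold. It did not pass without Mef2c shRNA array 1 (adjusted p = 0.0552), 5 (0.0510) or 6 (0.0645). The same held without control array 2 (0.0539), 5 (0.0599) or 6 (0.0650). Nor did it pass with the replicate block (0.0532), on median-centred arrays (0.0766) or without control arrays 4 and 6 (0.0844). Its direction held in each.

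Of 16 myotube markers, Ckm, Myh3 and Mymk fell in the Nup210 shRNA arrays and 0 rose (median over the 16 -0.09), and Actn2, Myh3 and Acta1 fell in the Mef2c shRNA arrays and 0 rose (median -0.01). In the same fit 8.16% and 10.8% of all genes were called. A separate fit of the genes above background alone called 18.1% and 23.2% of them, which is not like for like with these counts. The mean log2 level over the 16 markers ran from 11.28 to 11.40 in control arrays, from 11.14 to 11.32 in Nup210 shRNA arrays and from 11.16 to 11.29 in Mef2c shRNA arrays. The range of each shRNA group overlapped that of the controls, and the part of these markers in the Trim63 results was not tested. These are bulk samples, in which fewer myotubes and less RNA per myotube cannot be told apart. Adipocyte markers had a mean level from 5.81 to 5.92 in Mef2c shRNA arrays and from 5.46 to 5.71 in controls, with Lpl and Cebpa higher among 7 and Adipoq, Fabp4 and Lep below background. Of 11 myoblast and reserve cell markers 2 were higher and 1 lower with Nup210 shRNA (mean level from 8.83 to 9.02, controls from 8.76 to 8.90) and 2 higher and 2 lower with Mef2c shRNA. Of 9 fibroblast markers 2 were higher with Nup210 shRNA, and 1 higher and 2 lower with Mef2c shRNA. Their part was not tested either.

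The ATG8 genes split by group. Gabarapl1 (probe set 17463550) rose with Nup210 shRNA: its lowest, median and highest values were 8.76, 8.86 and 8.94 in controls, 9.05, 9.12 and 9.27 in Nup210 shRNA arrays and 8.83, 8.97 and 8.98 in Mef2c shRNA arrays. All Nup210 shRNA arrays lay above all others. The rise was 0.27 ± 0.047 (SE), to 121% of control (limma adjusted p = 0.00108), and the difference from Mef2c shRNA was 0.20 ± 0.047 (adjusted p = 0.00573). The Mef2c shRNA level, 105% of control, did not pass (adjusted p = 0.415). The rise with Nup210 shRNA passed in each of the 29 alternatives, at adjusted p from 7.86e-05 to 0.0116, also without arrays 2, 4 and 5.

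Map1lc3b (probe set 17506306), the gene of the usual autophagosome marker LC3B, was instead highest in the Mef2c shRNA arrays. It ran from 10.74 over a median of 10.84 to 10.91 in controls, from 10.64 over 10.77 to 10.82 with Nup210 shRNA and from 10.90 over 10.99 to 11.07 with Mef2c shRNA. Mef2c shRNA arrays lay above every Nup210 shRNA array and overlapped the controls through array 1 alone. It rose by 0.16 with Mef2c shRNA, to 112% of control (SE 0.044, limma adjusted p = 0.0208), and the Nup210 shRNA level was 95% of control (adjusted p = 0.37). Between the shRNA groups the difference was -0.24 ± 0.044 (adjusted p = 0.000837). The rise against control did not pass when Mef2c shRNA array 6 (adjusted p = 0.0507) or control array 3 (0.0520) was left out, or on median-centred arrays (0.0580).

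The receptor gene Sqstm1 (probe set 17262300) rose by 0.16 with Nup210 shRNA, to 112% of control (SE 0.039, limma adjusted p = 0.0143). Its lowest, median and highest values were 11.33, 11.38 and 11.44 in controls, 11.42, 11.55 and 11.65 in Nup210 shRNA arrays and 11.39, 11.42 and 11.45 in Mef2c shRNA arrays. Nup210 shRNA array 6, the lowest of its group, lay inside the control range, and the other 5 lay above it. The rise passed without any single array (adjusted p up to 0.0389) but not with only the groups compared in the fit (0.0556), without control arrays 4 and 6 (0.0932) or without Nup210 shRNA arrays 2, 4 and 5 (0.269). The direct difference from Mef2c shRNA, 0.12 ± 0.039 (adjusted p = 0.04), was lost when any of Nup210 shRNA arrays 1, 2, 4 and 5 or of the 6 Mef2c shRNA arrays was left out (adjusted p from 0.0527 to 0.0927).

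Bnip3 and Foxo3 passed in no comparison, and their groups overlapped throughout. Bnip3 (probe set 17497421), whose product tags mitochondria for autophagy, ran from 7.53 to 7.71 in controls (median 7.64), from 7.36 to 7.76 with Nup210 shRNA (7.57) and from 7.48 to 7.61 with Mef2c shRNA (7.54). Its levels were 95.7% of control with Nup210 shRNA (limma adjusted p = 0.572; 95% interval from 0.885 to 1.03 times) and 93.7% with Mef2c shRNA (adjusted p = 0.328; from 0.867 to 1.01 times). The factor gene Foxo3 (probe set 17240529) ran from 7.07 to 7.25 in controls (median 7.21), from 7.13 to 7.32 with Nup210 shRNA (7.22) and from 7.19 to 7.32 with Mef2c shRNA (7.22). It stood at 102% (adjusted p = 0.722; from 0.965 to 1.09 times) and 103% of control (adjusted p = 0.551; from 0.974 to 1.10 times). Its mRNA says nothing of where the FoxO3 protein lies in the cell.

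Across 140 measured genes of the same pathways, in 9 lists that leave out the 10 genes above, 22 passed for Nup210 shRNA against control (9 higher, 13 lower), 31 for Mef2c shRNA (10 and 21) and 50 between the shRNA groups (27 and 23). That is 15.7%, 22.1% and 35.7% of them, beside 8.16%, 10.8% and 14% of all genes and 18.1%, 23.2% and 27.9% of those above background. The shares above background come from a separate fit of those 13017 genes alone, which called more genes. They are therefore not like for like with the shares of the lists, and no ranking is drawn from them. The medians were 0.00, 0.02 and 0.04. Nearly all of these genes lie above background (Dapl1, Dapk1, Klf15, Mstn and Psma5 do not), where more genes pass. Without Nup210 shRNA arrays 2, 4 and 5 the first count was 9, all lower (2.54% of all genes), and the third was 30 (9.41%), while without control arrays 4 and 6 the second was 16 (6.4%).

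**Figure D3:**
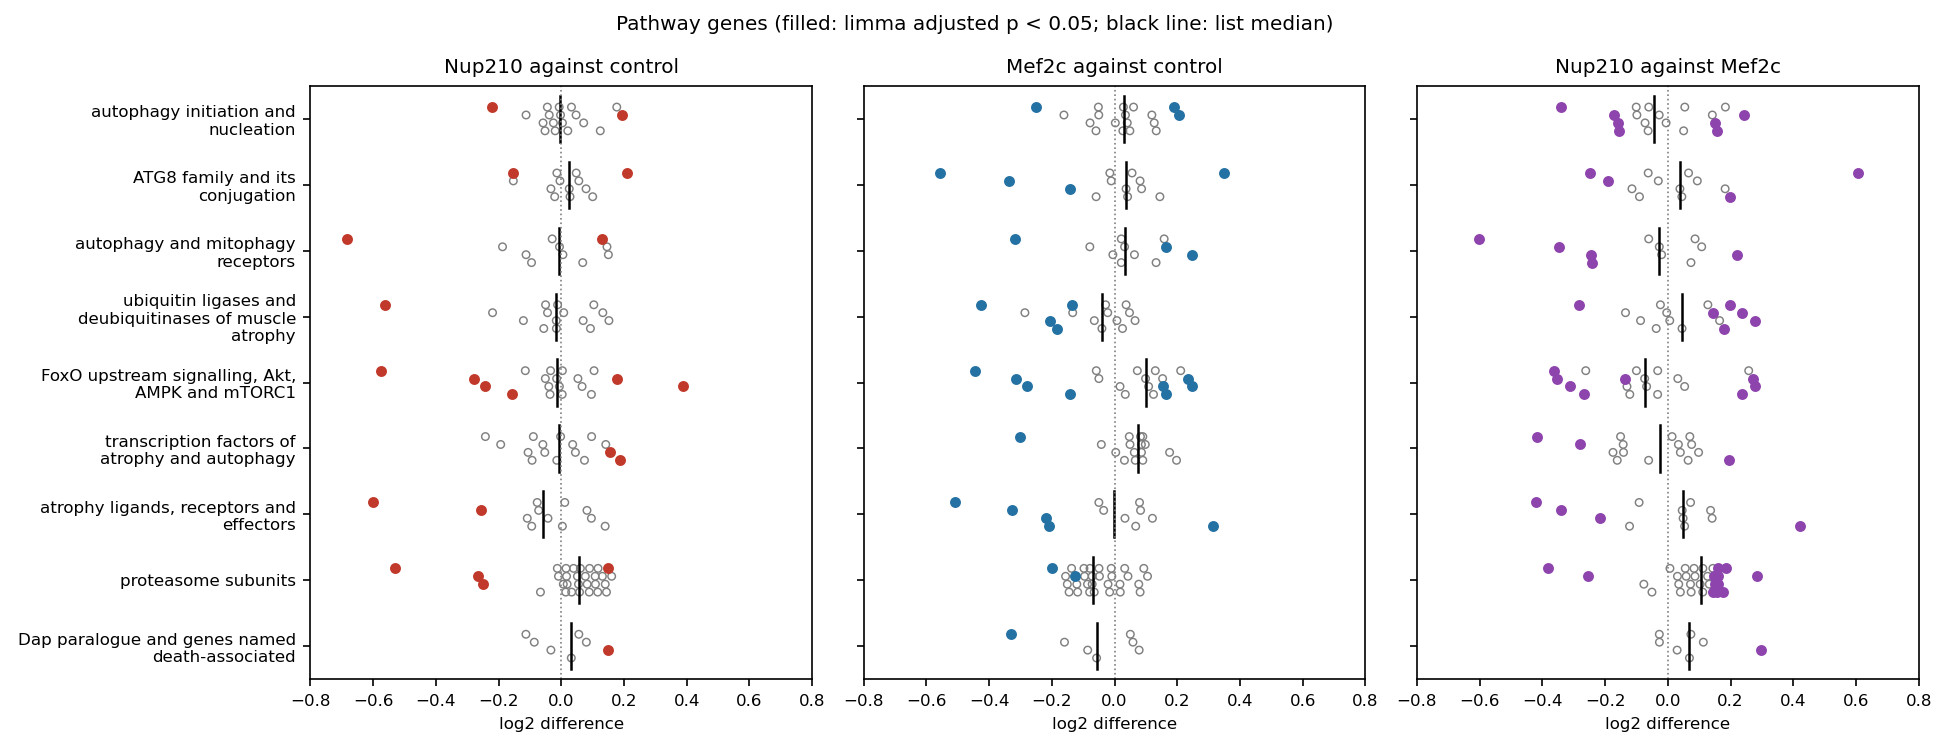
Log2 differences of the genes of 9 pathway lists in the 3 comparisons; filled points passed limma's test at an adjusted p under 0.05 and black lines are list medians. Called genes stand on both sides of 0 in most lists, and most proteasome subunits lie right of 0 between the shRNA groups, where the list median is 0.11.

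Autophagy initiation and nucleation genes, which start the isolation membrane, included 1 rise and 1 fall among 18 with Nup210 shRNA, with a median of -0.00, a count close to that over all genes (8.16% called). Ulk2, a kinase that starts autophagy, rose by 0.19 (limma adjusted p = 0.00549) and Uvrag, a partner of the Beclin complex, fell by 0.22 (adjusted p = 0.0183); neither passed without Nup210 shRNA arrays 2, 4 and 5 (0.0554 and 0.0903). With Mef2c shRNA 2 rose and 1 fell, with a median of 0.03: Atg9a, the membrane-bearing scramblase, rose by 0.21 (adjusted p = 0.0077; 0.0505 without control arrays 4 and 6) and Atg2b, a lipid transfer protein, fell by 0.25 (0.00311). Set against Mef2c shRNA, 3 were higher and 4 lower with Nup210 shRNA (median -0.04), led by Uvrag at -0.34 (adjusted p = 0.000299) and Atg2b at 0.24 (0.00263; 0.0675 without Nup210 shRNA arrays 2, 4 and 5).

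In the ATG8 conjugation list the clearest change was a fall of Atg12 with Mef2c shRNA. Atg12, the ubiquitin-like protein joined to Atg5 in the enzyme that lipidates ATG8, fell by 0.56 to 67.9% of control (SE 0.059, limma adjusted p = 5.47e-06), while the LC3 gene Map1lc3a rose by 0.35 (adjusted p = 0.00106). In that comparison 1 of 13 rose and 3 fell (median 0.04). With Nup210 shRNA 1 rose, the ATG8 protease Atg4b (0.21, adjusted p = 0.015), and 1 fell, the conjugating enzyme gene Atg10 (-0.16, adjusted p = 0.0475), with a median of 0.03. The Atg4b call was lost on median-centred arrays (0.0583) and without Nup210 shRNA arrays 2, 4 and 5 (0.13). That of Atg10 was lost without any of 15 of the 18 arrays, all but Nup210 shRNA arrays 1 and 3 and control array 2 (adjusted p from 0.0513 to 0.114). Against Mef2c shRNA 2 were higher and 2 lower with Nup210 shRNA, with Atg12 at 0.61 (adjusted p = 1.24e-06) and Map1lc3a at -0.25 (0.0108; 0.142 without Nup210 shRNA arrays 2, 4 and 5). The remaining ATG8 genes Gabarap and Gabarapl2 passed in no comparison. Over all genes 8.16% were called with Nup210 shRNA, 10.8% with Mef2c shRNA and 14% between the shRNA groups.

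Of 11 other cargo receptor genes, Fundc1, a mitophagy receptor of the outer mitochondrial membrane, had the largest change: it fell by 0.68 with Nup210 shRNA, to 62.3% of control (SE 0.11, limma adjusted p = 0.000568), with no overlap between groups. Phb2, the inner-membrane prohibitin, rose by 0.13 (adjusted p = 0.0406), which did not pass once any of Nup210 shRNA arrays 1, 2, 4 and 5, Mef2c shRNA array 1 or control arrays 1, 3, 4, 5 and 6 was dropped (adjusted p from 0.0509 to 0.098). Those were the 2 calls with Nup210 shRNA, and the list's median was -0.01. With Mef2c shRNA 2 rose and 1 fell (median 0.03): the mitophagy kinase Pink1 rose by 0.25 (adjusted p = 0.00252) and the reticulophagy receptor Retreg1 fell by 0.32 (7.07e-06). Between the shRNA groups 1 was higher and 4 lower, among them Fundc1 at -0.60 (adjusted p = 0.000725) and Bcl2l13 at -0.35 (0.000598). The shares of all genes called were 8.16% with Nup210 shRNA, 10.8% with Mef2c shRNA and 14% between the shRNA groups.

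Further ligases and deubiquitinases of atrophy yielded 1 fall among 15 with Nup210 shRNA and 4 falls with Mef2c shRNA, with medians of -0.02 and -0.04. Asb2, a ligase subunit that targets filamins in muscle, fell in both, by 0.56 (limma adjusted p = 0.00188) and 0.43 (adjusted p = 0.0109; 0.0915 without control arrays 4 and 6); the shared controls make these no independent pair. Usp14, a deubiquitinase bound to the proteasome, fell by 0.21 with Mef2c shRNA (adjusted p = 0.0245), which did not pass once any of Mef2c shRNA arrays 1 and 5 or control arrays 1, 4 and 6 was dropped (0.0535 to 0.0627), or control arrays 4 and 6 together (0.161). In the direct comparison 5 were higher and 1 lower with Nup210 shRNA, with Usp14 at 0.28 (adjusted p = 0.00228) and Trim54, the third MuRF gene, at -0.28 (0.0198). Dropping Nup210 shRNA array 2 (adjusted p = 0.0507), 5 (0.0501) or 2, 4 and 5 together (0.326) ended the Trim54 call, and its dimmer probe set differed by -0.05. All 3 MuRF genes were thus called lower with Nup210 than with Mef2c shRNA, 2 of them among the 10 genes followed here. Beside the counts of this list, 8.16% of all genes were called with Nup210 shRNA, 10.8% with Mef2c shRNA and 14% between the shRNA groups.

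In the signalling upstream of FoxO, the AMPK catalytic subunit Prkaa2 fell in both groups, by 0.58 with Nup210 shRNA (67.1% of control, limma adjusted p = 1.5e-05) and by 0.45 with Mef2c shRNA (73.4%, adjusted p = 0.000121). With Nup210 shRNA 2 of 19 rose and 4 fell (median -0.01); the stress protein Sesn2, which restrains mTORC1, rose by 0.39 (adjusted p = 0.0107; 0.297 without arrays 2, 4 and 5). With Mef2c shRNA 4 rose and 4 fell (median 0.10), among them a fall of the mTORC1 activator Rheb by 0.31 (adjusted p = 0.000252). In the direct comparison 3 were higher and 5 lower with Nup210 shRNA (median -0.07), led by the sestrin Sesn3 at -0.36 (adjusted p = 0.000123) and the mTOR inhibitor Deptor at -0.35 (6.49e-06), whose second probe set differed by -0.43. Calls over all genes came to 8.16% with Nup210 shRNA, 10.8% with Mef2c shRNA and 14% between the shRNA groups.

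Of 16 transcription factors of atrophy and autophagy, Hdac4 and Rela rose with Nup210 shRNA, by 0.19 (limma adjusted p = 0.0328) and 0.15 (adjusted p = 0.0111), and none fell (median -0.01). Dropping any of Nup210 shRNA arrays 2, 3, 4 and 5 or control arrays 1, 4 and 6 ended the Hdac4 call (0.0532 to 0.0818). Neither gene passed without Nup210 shRNA arrays 2, 4 and 5 (0.293 and 0.219) or without control arrays 4 and 6 (0.21 and 0.0533). With Mef2c shRNA Atf4, the factor of the integrated stress response, fell by 0.30 (adjusted p = 0.000265), and none rose (median 0.07). Between the shRNA groups 1 was higher and 2 lower, Mitf at -0.42 (adjusted p = 0.000723) and Foxo6 at -0.28 (0.0169; 0.208 without Nup210 shRNA arrays 2, 4 and 5). Foxo1, Foxo4 and Tfeb passed in no comparison. Of all genes tested, 8.16% were called with Nup210 shRNA, 10.8% with Mef2c shRNA and 14% between the shRNA groups.

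Ligands, receptors and effectors of atrophy had 2 falls and no rise among 12 with Nup210 shRNA (median -0.06) and 4 falls and 1 rise with Mef2c shRNA (median -0.00). The muscle calpain Capn3 fell in both, by 0.60 (65.9% of control, limma adjusted p = 0.000454) and 0.51 (70.3%, adjusted p = 0.0013). Ampd3, an AMP deaminase counted among atrophy genes, fell by 0.26 with Nup210 shRNA (adjusted p = 0.00113), and the myostatin antagonist Fst by 0.33 with Mef2c shRNA (0.00148). Between the shRNA groups 1 was higher, Fst at 0.42 (adjusted p = 8.24e-05), and 3 lower, led by the fetal acetylcholine receptor subunit Chrng at -0.42 (5.58e-06). For all genes the shares called were 8.16% with Nup210 shRNA, 10.8% with Mef2c shRNA and 14% between the shRNA groups.

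Among the proteasome subunits both directions were seen. Of 30, 1 rose and 3 fell with Nup210 shRNA (median 0.06), and 2 fell with Mef2c shRNA (median -0.07). Between the shRNA groups 10 were higher and 2 lower with Nup210 shRNA (median 0.11, against -0.00 over all genes). In that comparison 14% of all genes were called, and 27.9% in the separate fit of those above background. Without Nup210 shRNA arrays 2, 4 and 5 the subunit counts between the shRNA groups were 4 and 1, with the same median of 0.11. The core subunit Psma1 had the largest difference of the called subunits: it fell by 0.53 with Nup210 shRNA, to 69.2% of control (SE 0.067, limma adjusted p = 6.77e-05), and differed by -0.38 from the Mef2c shRNA level (adjusted p = 0.000583). Its sister subunit Psma7 was 0.29 higher with Nup210 than with Mef2c shRNA (adjusted p = 0.002). Psmd8 fell by 0.27 with Nup210 shRNA (adjusted p = 0.0142; 0.185 without arrays 2, 4 and 5 and 0.0758 without control arrays 4 and 6). With Mef2c shRNA Psmc6 fell by 0.20 (adjusted p = 0.0194; 0.0505 with control array 1 dropped) and Psmd11 by 0.12 (0.0292). Dropping any of Mef2c shRNA arrays 1, 3 and 5 or control arrays 2, 4, 5 and 6 ended the Psmd11 call (adjusted p from 0.0508 to 0.0746), and without control arrays 4 and 6 neither passed (0.0789 and 0.14).

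Of 7 genes related to Dap by sequence or by name, 1 rose with Nup210 shRNA and 0 fell, beside 8.16% of all genes called. Its paralogue Dapl1 lay below background at 3.84 with Nup210 shRNA and 3.76 in controls, so no change of it is measured. The gene that rose, Dap3, a mitochondrial ribosomal protein, did so by 0.15 with Nup210 shRNA (limma adjusted p = 0.0427). That call was lost without any of 12 arrays, namely Nup210 shRNA arrays 1, 2, 3, 5 and 6, Mef2c shRNA arrays 1 and 4 and all control arrays but 2 (adjusted p from 0.0517 to 0.105). Daxx, a chromatin chaperone first named for a death domain partner, fell by 0.33 with Mef2c shRNA (79.6% of control, adjusted p = 4.16e-05) and lay 0.30 higher with Nup210 than with Mef2c shRNA (6.91e-05). The kinases Dapk2 and Dapk3 passed in no comparison. The coding genes that flank Dap, Ctnnd2 and Ankrd33b, differed from control by 0.07 (limma adjusted p = 0.736) and 0.00 (0.989) with Nup210 shRNA. Of these, Ctnnd2 lay below background, at 5.26 with Nup210 shRNA and 5.19 in controls, so no change of it is measured.

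Fbxo31 and Map1lc3b, which rose together with Mef2c shRNA, are next to each other on chromosome 8, where the annotated order of coding genes is 1700018B08Rik, Fbxo31, Map1lc3b and Zcchc14. The gene on the Fbxo31 side, 1700018B08Rik, differed by 0.17 with Mef2c shRNA and did not pass (limma adjusted p = 0.347). Of all coding genes that flank the 10 and are not among them, only Zcchc14 and Mgat4b passed with Mef2c shRNA. Only Mgat4b passed with Nup210 shRNA. Over all genes 10.8% passed with Mef2c shRNA and 8.16% with Nup210 shRNA. Zcchc14, chosen after its values were seen among the coding genes that flank the 10, rose by 0.25 with Mef2c shRNA without overlap of groups (SE 0.048, limma adjusted p = 0.00181) and stood at 0.02 with Nup210 shRNA (adjusted p = 0.891). Mgat4b, which flanks Sqstm1 and was also chosen after its values were seen, rose by 0.27 with Nup210 shRNA (adjusted p = 0.00229) and by 0.28 with Mef2c shRNA (0.00145), whereas Sqstm1 differed by 0.04 with Mef2c shRNA (0.655).

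The genes whose profile over the 18 arrays was most like that of Dap were Padi2, Tmem123, Slc44a4 and Tmem184c. Likeness was the root-mean-square difference between log2 values after each gene was centred on its control mean, and these genes stood at 0.317, 0.331, 0.373 and 0.387 from Dap. A flat profile would stand at 0.852, so they follow Dap in direction and fall short of it in size: their mean differences with Nup210 shRNA were -1.11, -0.93, -1.04 and -0.81. For Trim63 the nearest were Tnfrsf23, a decoy death receptor, the deubiquitinase Usp2, the dynactin subunit Dctn1 and the muscle Kelch protein Klhl31, at 0.0754, 0.0776, 0.0872 and 0.0888, with 0.243 for a flat profile. These 4 stood between -0.37 and -0.28 with Nup210 shRNA and between 0.18 and 0.31 with Mef2c shRNA. They were ranked by that likeness, so it is no test.

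**Figure D4:**
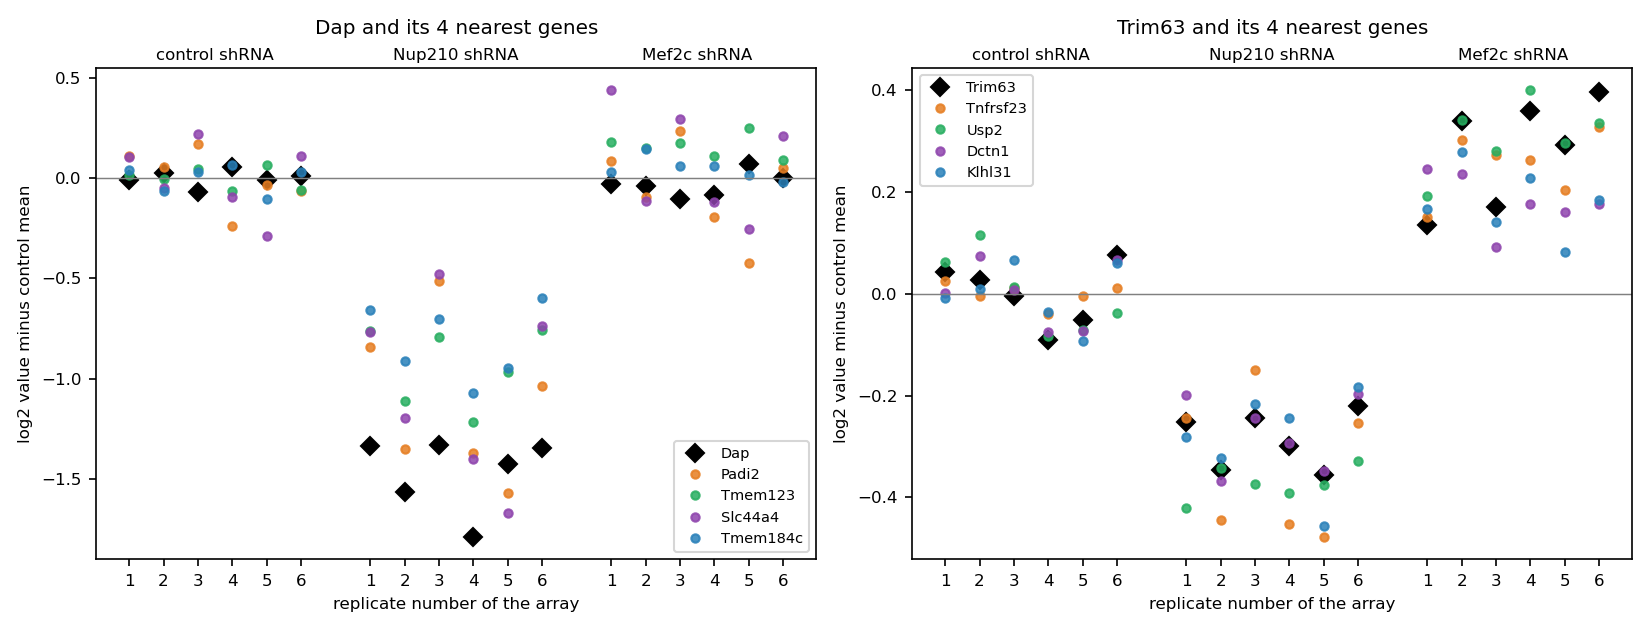
Log2 value minus the control mean on each array for Dap (left) and Trim63 (right), drawn as black diamonds, with the 4 genes nearest to each as coloured points; replicate numbers have no order. Dap lies below its 4 nearest genes in every Nup210 shRNA array but 5, where Padi2 and Slc44a4 are lower, whereas the 4 genes nearest to Trim63 lie on its side of 0 in every Nup210 and Mef2c shRNA array.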

How the data were processed

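Each of the 18 C2C12 samples was read on 1 one-colour array. The authors deposited log2 values for each probe set, made with RMA and Partek per the submitters' processing notes; neither versions and settings nor a build is given in the sources used. RMA forces a common distribution on all arrays and shrinks the differences of dim probe sets. No depth applies to arrays. All 18 value columns belonged to these samples.

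Of 41345 probe sets, 23521 had 1 gene symbol in the platform annotation and were used, with the brightest probe set per gene (22180 genes). With limma 3.58.1 under R 4.3.3, a single model held all 18 arrays with group means, no covariates and moderated variances; calls are Benjamini-Hochberg adjusted p under 0.05 over all genes. The fit was tested on simulated data. Promoter windows and gene order come from RefSeq, GRCm38.p6. The 10 genes, the lists and the tests were chosen with earlier results of these data known, which include the values of Dap and Trim63. Genes named from the lists were the 2 largest called changes per list and comparison; the 4 most similar profiles to Dap and Trim63 and the 2 falls after Dap were also named. Other settings tried were a block for the replicate number, fits of only the groups compared, renewed quantile normalization, median centring, dim genes left out, other handling of probe sets, a trended robust prior, array weights, a threshold of 0.01 and leaving out each array; leaving out Nup210 shRNA arrays 2, 4 and 5, or control arrays 4 and 6, was added after seeing the data.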

Additional observations from a re-analysis of the deposited data

Results flagged for a closer look

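Trim63 differed between the shRNA groups in the direction of its change from control: it passed as lower with Nup210 shRNA and as higher with Mef2c shRNA. It was 1 of 84 genes so called among all 22180. The difference between the shRNA groups was -0.57 on the log2 scale (limma adjusted p = 3.53e-07), with all 6 arrays of each on its own side of the control range. The Mef2c shRNA array 5 stood apart from its group for Trim55, at 9.36 with the nearest array at 9.44, a gap of 0.63 of the group's range. It was the only such array among 30 sets of 6 values, where chance gives about 5% of sets.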

How the results depend on the processing

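Of 2291 recomputed differences of single genes, the differences of Dap from control apart, 130 lost a call, 1 gained it, 0 reversed and 1 moved by more than the spread between replicates. These 2291 include differences that the main fit did not call, which had no call to lose. The difference of Dap with Nup210 shRNA moved by more than that spread in 1 setting. Leaving out single arrays gave 4 called members other than Dap in each case for Nup210 shRNA against control, 1 to 3 (without Mef2c shRNA array 6: 1) for Mef2c shRNA and 4 to 5 between the groups. For pathway genes it gave 17 to 22, 24 to 32 and 42 to 49, for the Dap difference -1.49 to -1.40 with Nup210 shRNA, and -0.05 to -0.02 with Mef2c shRNA. Without Nup210 shRNA arrays 2, 4 and 5, members called were 2 against control and 3 against Mef2c shRNA, pathway genes 9 and 30, and the Dap difference -1.34 (-1.31 against Mef2c shRNA). Without control arrays 4 and 6, pathway genes called with Mef2c shRNA were 16. Median centring left 1 member called with Mef2c shRNA. At an adjusted p under 0.01, that count was 1 and pathway genes called were 11, 17 and 30. Fewer arrays lower the power of the fit; other causes were not tested.

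The labels give no pairing by replicate number. In each comparison 2 of 6 same-numbered pairs correlated above 0.1 across genes, and 3, 4 and 4 of 6 arrays matched their own number best, a hint from the data of something shared. With the replicate number as a block, 4, 2 and 6 members were called (Fbxo31 lost, adjusted p = 0.0532; Fbxo32 gained) and 28, 40 and 56 pathway genes, and calls over all genes went from 1809, 2386 and 3113 to 2221, 2862 and 3528. Signal over background did not limit the 10 genes.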
